A study of Mus musculus with 6 samples.

Results

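The genes described here encode the chaperones of the cytosol and of the mitochondrial matrix, together with the heat shock factors. They were chosen by name, not by their values, though with earlier results of these data known. Of the 38 mouse symbols, 37 were found among the 41128 genes of the table by Ensembl ID. Hspa14, a ribosome-associated HSP70, was not matched to a row and is not analysed here. The found genes comprise 6 HSP70 family genes, 11 genes for HSP90 and its cochaperones, 5 HSP40 genes, 8 subunits of the chaperonin TRiC/CCT, 4 mitochondrial chaperones, and Hspb1 with Hsf1 and Hsf2. Levels are in RPM, reads of a gene scaled to the same total in every library, and 36 of the 37 genes reached the minimum mean of 1 RPM set for testing.

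C57BL mice had received the small molecule YH250, which the series title calls an antagonist of p300/catenin, or DMSO, in both cases with bone marrow taken 16 h later. YH250 was given subcutaneously at 2 mg per kg. The marrow was sorted for long-term repopulating stem cells of the blood, which can restore all blood lineages in a transplanted host, by the phenotype Lin-Sca1+c-Kit+CD41-CD48-CD150+, and poly(A) RNA was sequenced from 3 YH250 libraries and 3 DMSO libraries. The libraries are numbered 1 to 3 in each group, and the meaning of a number, the age of the mice and the mice per library are not stated in the labels. The p-values therefore measure the spread between these libraries, which may be technical.

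Chaperones bind unfolded or partly folded proteins and help them to fold, to assemble or to be degraded. HSP70 proteins hold clients in cycles of ATP hydrolysis that HSP40 (J) proteins start and nucleotide exchange factors end, and they pass part of their clients to HSP90, whose cochaperones tune its cycle. TRiC/CCT is a closed chamber that folds actin and tubulin, and HSP60 with its lid HSP10 forms the chamber of the mitochondrial matrix. When unfolded protein accumulates, heat shock factor 1 binds heat shock elements, which are runs of inverted nGAAn units, and raises transcription of the inducible members. Blood stem cells are known for a low rate of protein synthesis and for a close dependence on protein quality.

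Promoters are shown for the near-identical inducible pair Hspa1a and Hspa1b, which had the largest log2 differences among the tested chaperone genes, and for Hspe1 and Dnajb6, whose windows hold several heat shock element units in a row. Each is the 150 bases before an annotated start in RefSeq's table for GRCm38.p6, read 5′ to 3′ on the gene's strand, with matches to GAANNTTC or TTCNNGAA in capitals (each motif is its own reverse complement, so both strands are covered). The intervals are chr17:34959239-34959388 on the minus strand for Hspa1b, chr17:34972157-34972306 on the minus strand for Hspa1a, chr1:55087998-55088147 on the plus strand for Hspe1 and chr5:29735829-29735978 on the plus strand for Dnajb6.
Hspa1b: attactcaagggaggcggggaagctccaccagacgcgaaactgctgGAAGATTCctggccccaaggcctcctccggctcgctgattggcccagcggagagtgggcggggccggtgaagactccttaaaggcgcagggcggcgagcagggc
Hspa1a: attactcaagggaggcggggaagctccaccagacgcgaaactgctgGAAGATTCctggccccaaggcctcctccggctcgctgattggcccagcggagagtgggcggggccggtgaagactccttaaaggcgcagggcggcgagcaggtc
Hspe1: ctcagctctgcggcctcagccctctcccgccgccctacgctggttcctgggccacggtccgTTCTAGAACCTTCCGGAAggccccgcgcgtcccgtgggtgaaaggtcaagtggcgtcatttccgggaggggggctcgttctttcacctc
Dnajb6: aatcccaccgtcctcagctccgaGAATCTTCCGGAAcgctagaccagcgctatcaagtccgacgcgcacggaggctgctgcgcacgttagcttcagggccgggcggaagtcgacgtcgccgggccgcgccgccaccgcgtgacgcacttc

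The 300-base windows of Hspa1a and Hspa1b, which reach a short way past the start, are identical at 296 of 300 positions, and the match lies at position -104 in both (the base before the start is -1). Hspe1 and Hspd1 face away from each other, with 215 bases between the Hspe1 start and one of the Hspd1 starts, so that these windows share 285 bases and the same run of matches. RefSeq windows were found for 31 of the 38 genes. At least 1 match lay in a window of 17 of these 31 (54.8%), as in 4587 of 27025 genes in the table (17.0%). At least 3 units in a row, that is both motifs sharing their middle unit, lay in windows of 5 of the 31 (16.1%), namely Chordc1, Dnajb6, Hspd1, Hspe1 and Hsph1, as in 179 of all genes (0.662%). Genes without a window in the table were Hspa8, Hsp90aa1, Hsp90ab1, Hsf1, Cct4, Hspa9 and St13. A match is a run of letters and no evidence of binding.

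A gene at 1 RPM rested on 21.96 to 31.19 reads, and a floor of 3 reads corresponded to 0.0962 to 0.137 RPM, which covers counting error alone. The genes of a library summed to 70.0% (DMSO 1) to 95.9% (DMSO 3) of the scaling total. The first principal component (48.0% of the variance) set both libraries numbered 3 apart, and the second (26.9%) set YH250 2 apart. The summed level of 8 stem cell markers was 632 to 1163 RPM in YH250 and 702 to 1260 RPM in DMSO, with none at 0. That of 6 B cell markers was 166 to 740 RPM in YH250 and 63.4 to 485 RPM in DMSO, with Pax5 at 0 in some libraries, and was highest in number 3 in both groups. For 6 T and NK cell markers the sums were 104 to 391 RPM in YH250 and 43.3 to 446 RPM in DMSO, with none at 0, and for 7 granulocyte and macrophage markers they were 241 to 375 RPM in YH250 and 137 to 418 RPM in DMSO, with Ltf at 0 in some libraries. For 7 endothelial and stromal markers YH250 2 had 350 RPM, against 76.6 to 89.0 RPM in the other libraries of both groups, with none at 0. Cxcl12 (202 RPM), Lepr (58.2 RPM) and Plvap (44.97 RPM) were each highest in YH250 2. Cdh5, Kdr, Pecam1 and Col1a1 were not highest there, with 5.16, 1.52, 37.8 and 0.291 RPM in turn in YH250 2. Cd48 and Flt3, genes of more advanced progenitors, summed to 42.0 to 496 RPM in YH250 and 36.8 to 529 RPM in DMSO, lowest in number 1 and highest in number 3 in both groups. A sort for cells without lineage markers and CD48 would remove mature B, T, NK, myeloid and CD48+ cells, and the part of such cells in the results below was not tested.

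No gene passed an adjusted p under 0.05 between YH250 and DMSO (limma, Benjamini-Hochberg over 13597 genes, 0.0% called), and the smallest adjusted p of a chaperone gene was 0.999. Of 36 tested genes, 27 had a higher mean on the log2(RPM + 1) scale in YH250 (75%, against 51.7% of all tested genes), and 22 of 36 did so after quantile normalization. Their median log2 difference was 0.18, against 0.02 over all tested genes. It was 0.07 after quantile normalization and 0.086 with equal gene totals, against -0.0087 and -0.07 over all tested genes. At an unadjusted p under 0.05, 4 of 36 (11.1%) were higher in YH250, namely Hspa1b, Hspa1a, Hspa8 and Stip1, against 0.934% of all tested genes. None of the 36 was lower at that level, against 0.765% of all tested genes. In 7 genes (19.4%) every YH250 library lay above every DMSO library, against 3.79% of all tested genes. These were the 4 genes named with Hsp90ab1, Cct5 and Trap1. In no chaperone gene did every YH250 library lie below every DMSO library, against 3.68% of all tested genes. Both counts are on the RPM scale, and neither was repeated over all tested genes with equal gene totals. As a share of the reads in genes, Hsp90ab1, Cct5 and Trap1 overlapped between the groups. Hspa1b, Hspa1a, Hspa8 and Stip1 did not overlap on that scale. Genes made up 77.9%, 84.9% and 93.6% of the scaling total in YH250 1, 2 and 3. In DMSO 1, 2 and 3 the share was 70.0%, 75.6% and 95.9%, lower than in YH250 at numbers 1 and 2. Without YH250 2, 2 genes remained under an unadjusted p of 0.05, Hspa1b and Stip1. In bulk RNA, fewer cells of a type and less RNA per cell cannot be told apart.

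With the replicate number as a block, 7 genes (19.4%) were higher in YH250 at an unadjusted p under 0.05, Cdc37, Cct5 and Dnajb1 in addition, against 4.46% of all tested genes. None was lower, against 2.99% of all tested genes, and the smallest adjusted p with limma was 0.66. Between libraries of the same number, 18 of 36 genes (50.0%) were higher in YH250 at all 3 numbers, against 16.1% of all tested genes. Dnajb6 and Hspa9 were lower at all 3 numbers, that is 2 of 36, against 15.0% of all tested genes. These counts by number are also on the RPM scale and were not repeated over all tested genes with equal gene totals. As a share of the reads in genes, Tcp1, Cct2, Cct3, Cct6a, Cct8, Hspd1, Trap1 and Hsf1 were not higher at all 3 numbers. On that scale Cct4 was higher at all 3 numbers, and Hspa4 and Dnaja2 were lower at all 3 numbers as well.

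**Figure D1:**
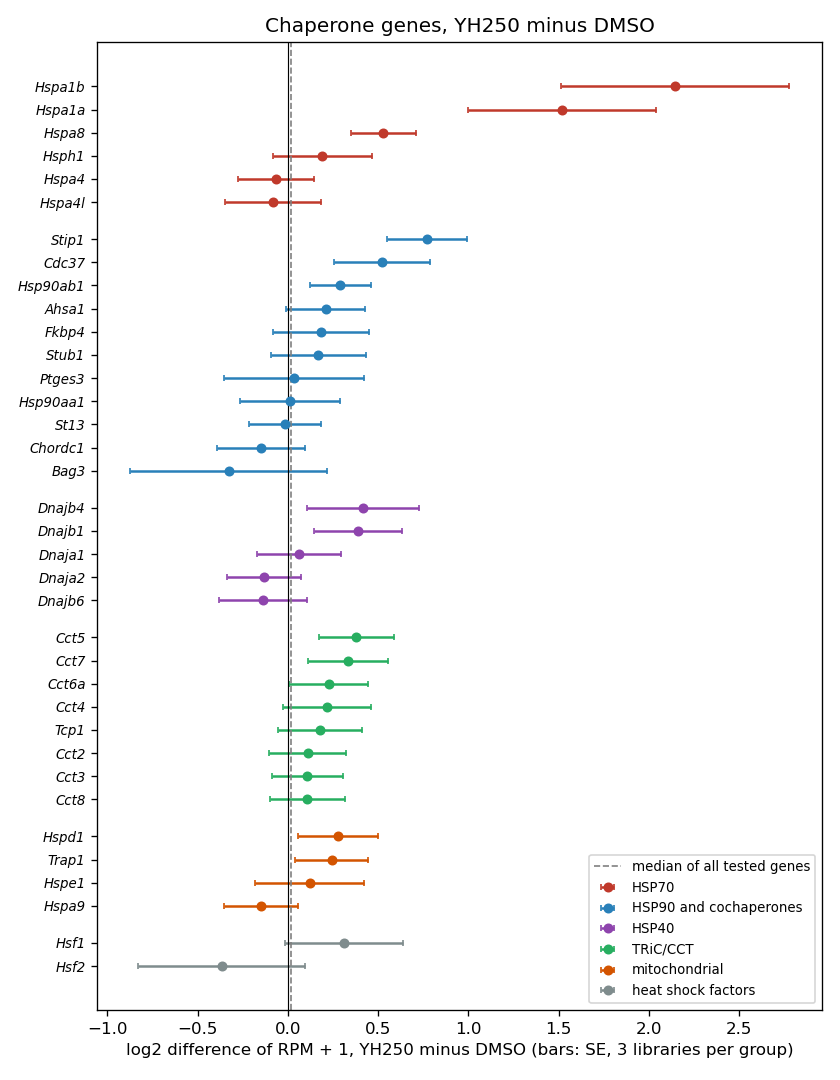
Log2 difference of RPM + 1, YH250 minus DMSO, for the 36 tested chaperone genes, grouped by role; points are limma estimates from 3 libraries per group, bars are standard errors, and the dashed line is the median of all tested genes. Hspa1b (2.14) and Hspa1a (1.52) lie farthest to the right, and the 8 TRiC/CCT subunits lie between 0.11 and 0.38.

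In the HSP70 family, the constitutive Hspa8 and the inducible pair had YH250 levels above all DMSO levels, and the HSP110 exchange factors did not. Hspa1b, one of the inducible HSP70 genes (chromosome 17, 34956436 to 34959238), had 7.30, 48.9 and 15.2 RPM in YH250 1, 2 and 3, against 2.51, 4.53 and 3.00 RPM in DMSO 1, 2 and 3. Its lowest YH250 library was above its highest DMSO library, and YH250 2 was more than 3 times as high as the next. The log2 difference was 2.14 ± 0.63 (SE; limma, unadjusted p = 0.00801, adjusted p = 0.999), and it was 1.44 without YH250 2 (unadjusted p = 0.020). Hspa1a, its near-identical neighbour (34969190 to 34972156), had 5.49, 12.9 and 10.3 RPM in YH250 libraries, against 1.15, 4.27 and 2.83 RPM in DMSO libraries. The groups did not overlap, and the log2 difference was 1.52 ± 0.52 (unadjusted p = 0.017), 1.28 without YH250 2 (unadjusted p = 0.052) and 1.17 without DMSO 1 (unadjusted p = 0.065). At numbers 1, 2 and 3 in turn, the Hspa1a difference was 1.59, 1.40 and 1.56, and the Hspa1b difference was 1.24, 3.17 and 2.02.

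Reads of 50 bases cannot always separate the pair, since 62.3% of the 50-base words of the Hspa1b transcript also occur in Hspa1a. The sum of both was 12.8, 61.8 and 25.5 RPM in YH250 1, 2 and 3, against 3.66, 8.80 and 5.82 RPM in DMSO 1, 2 and 3, with means of 33.4 ± 25.5 and 6.10 ± 2.58 RPM (SD, n = 3 each). Fitted as 1 gene, the pair gave a log2 difference of 2.07 ± 0.56 (limma, unadjusted p = 0.00513). The sum amounted to 0.575%, 2.28% and 0.943% of the Hspa8 level in YH250 1, 2 and 3, against 0.226%, 0.457% and 0.335% in DMSO 1, 2 and 3, so the inducible pair stayed a small fraction of the constitutive HSP70 in every library.

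Hspa8, the constitutive cytosolic HSP70 (chromosome 9, 40800984 to 40810087), had 2223, 2715 and 2703 RPM in YH250 1, 2 and 3, against 1621, 1924 and 1737 RPM in DMSO 1, 2 and 3. The groups did not overlap and the difference was 0.46, 0.50 and 0.64 on the log2 scale at numbers 1, 2 and 3. The log2 difference was 0.53 ± 0.18 (limma, unadjusted p = 0.016). It was 0.48 without YH250 2 (unadjusted p = 0.069), 0.48 without YH250 3 (unadjusted p = 0.077) and 0.30 after quantile normalization (unadjusted p = 0.108). Of the Hspa8 words, 73.2% occur in other genes, most of them in processed pseudogenes. The rows of 4 such pseudogenes were low except Gm8355, which had 212.3 RPM in DMSO 3, against 1.40 to 8.22 RPM in the other libraries of both groups. Summed with these rows, Hspa8 gave a log2 difference of 0.47 ± 0.18 (unadjusted p = 0.028), an alternative chosen after seeing the data.

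The HSP110 genes encode exchange factors of HSP70. Hsph1 had 38.6, 46.6 and 49.6 RPM in YH250 1, 2 and 3, against 36.2, 30.6 and 53.5 RPM in DMSO 1, 2 and 3, and its groups overlapped (log2 difference 0.19 ± 0.28). Hspa4 ranged over 94.5 to 112 RPM in YH250 and 101 to 125 RPM in DMSO, and Hspa4l over 24.8 to 40.8 RPM in YH250 and 34.2 to 36.1 RPM in DMSO. Their log2 differences were -0.06 ± 0.21 and -0.08 ± 0.27. The 6 HSP70 genes together summed to 2764 ± 295 RPM in YH250 and 1953 ± 149 RPM in DMSO (SD, n = 3 each), most of it Hspa8.

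**Figure D2:**
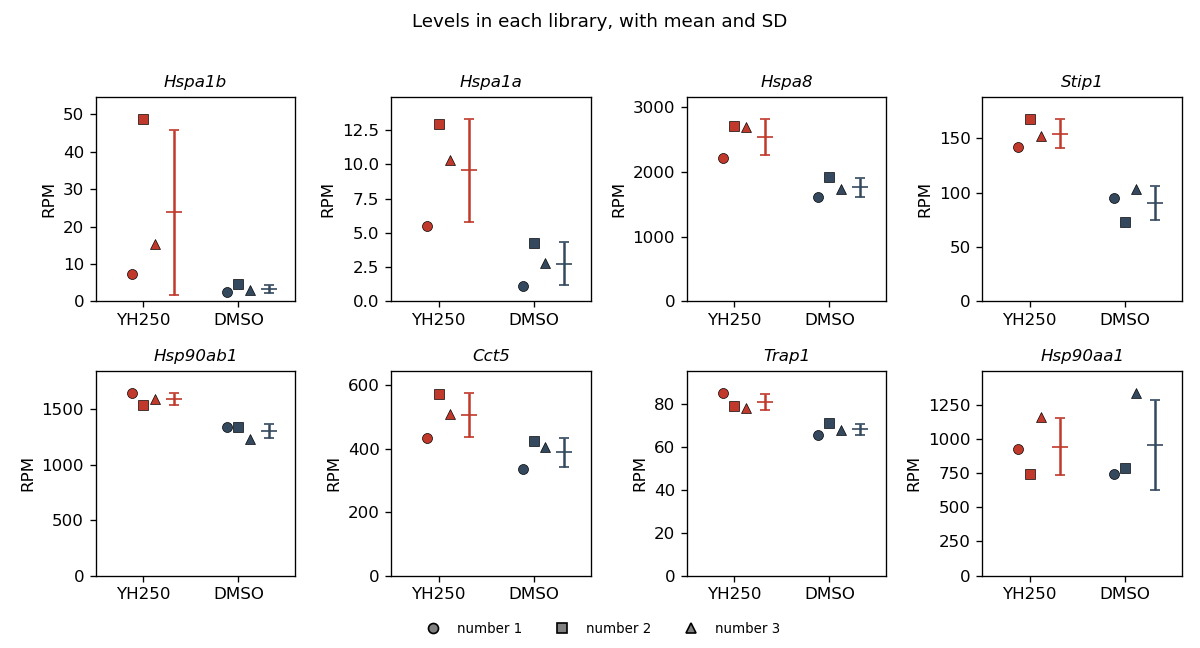
RPM in each library for 8 chaperone genes, YH250 left and DMSO right, with marker shape for the replicate number and the group mean with SD beside the points (3 libraries per group, each axis from 0). In all genes shown except Hsp90aa1 the YH250 points lie above the DMSO points, and the Hspa1b mean of 23.8 RPM in YH250 is drawn up by the 48.9 RPM of YH250 2.

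Of the HSP90 genes and cochaperones, Stip1 and the constitutive Hsp90ab1 had YH250 levels in RPM above all DMSO levels, and the inducible Hsp90aa1 did not. As a share of the reads in genes, Hsp90ab1 overlapped between the groups and Stip1 did not. Stip1 encodes HOP, which bridges HSP70 and HSP90 (chromosome 19, 7020702 to 7039967). It had 142, 168 and 152 RPM in YH250 1, 2 and 3, against 94.9, 73.3 and 104 RPM in DMSO 1, 2 and 3. All YH250 libraries lay above all DMSO libraries, with means of 154 ± 13.3 and 90.6 ± 15.6 RPM (SD, n = 3 each). The log2 difference was 0.77 ± 0.22 (limma, unadjusted p = 0.00734, adjusted p = 0.999), and it was 0.63 to 0.87 with any 1 library left out, with every unadjusted p under 0.05. Without both libraries numbered 2 it was 0.56 (unadjusted p = 0.081). No match to the heat shock motif lay in the Stip1 promoter window.

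Hsp90ab1, the constitutive HSP90 (chromosome 17, 45567775 to 45573271), had 1647, 1540 and 1594 RPM in YH250 1, 2 and 3, against 1340, 1339 and 1229 RPM in DMSO 1, 2 and 3. The groups did not overlap in RPM, and the log2 difference was 0.29 ± 0.17 (limma, unadjusted p = 0.118). It was 0.12 after quantile normalization and 0.20 with equal gene totals. Hsp90aa1, the stress-inducible HSP90 (chromosome 12, 110690605 to 110702728), had 927, 742 and 1159 RPM in YH250 1, 2 and 3, against 739, 789 and 1335 RPM in DMSO 1, 2 and 3. Its groups overlapped, number 3 was highest in both, and the log2 difference was 0.01 ± 0.28, with a negative sign under 3 other scalings. The ratio of Hsp90ab1 to Hsp90aa1 was 1.78, 2.08 and 1.38 in YH250 1, 2 and 3, against 1.81, 1.70 and 0.921 in DMSO 1, 2 and 3. Words shared with other genes make up 58.5% of Hsp90aa1 and 4.49% of Hsp90ab1.

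Cdc37, which brings protein kinases to HSP90 (chromosome 9, 21133222 to 21149982), had 218, 248 and 169 RPM in YH250 1, 2 and 3, against 154, 183 and 108 RPM in DMSO 1, 2 and 3. The groups overlapped, but at each number YH250 was higher, by 0.50, 0.43 and 0.64 on the log2 scale. The unadjusted p of the log2 difference of 0.52 was 0.080, and 0.00662 with the replicate number as a block (limma, adjusted p = 0.66). The difference was 0.31 without DMSO 3 (unadjusted p = 0.209). Ahsa1, which encodes the activator of the HSP90 ATPase, was also higher at all 3 numbers, with 114 to 145 RPM in YH250 and 97.1 to 130 RPM in DMSO.

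The other cochaperones did not separate the groups. Ptges3 encodes p23, which stabilizes the closed form of HSP90, and ranged over 307 to 513 RPM in YH250 and 234 to 703 RPM in DMSO. Fkbp4, a prolyl isomerase, had 173 to 210 RPM in YH250 and 117 to 209 RPM in DMSO. St13, the HSP70-interacting protein HIP, had 128 to 146 RPM in YH250 and 135 to 146 RPM in DMSO. Stub1, the ubiquitin ligase CHIP that hands clients of both chaperones to degradation, had 97.3 to 130 RPM in YH250 and 72.9 to 128 RPM in DMSO, and Chordc1, an HSP90-binding protein, had 62.7 to 84.0 RPM in YH250 and 69.5 to 103 RPM in DMSO. Bag3, an inducible exchange factor of HSP70 that acts in selective autophagy, had 9.87, 3.24 and 3.42 RPM in YH250 1, 2 and 3, against 6.75, 10.1 and 3.69 RPM in DMSO 1, 2 and 3. Its libraries overlapped, and YH250 2, the highest library for Hspa1b, was the lowest for Bag3. The log2 difference of Bag3 was -0.33 ± 0.55.

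Of the HSP40 genes, whose J proteins start the ATPase cycle of HSP70, Dnajb1 was higher in YH250 at each number and the others were mixed. Dnajb1, a stress-inducible J protein (chromosome 8, 83608193 to 83612653), had 101, 133 and 113 RPM in YH250 1, 2 and 3, against 86.0, 110 and 70.9 RPM in DMSO 1, 2 and 3. The groups overlapped, and the log2 difference was 0.39 ± 0.24 (limma, unadjusted p = 0.142, and 0.049 with the replicate block). It was 0.24 without DMSO 3, 0.25 without both libraries numbered 3 and 0.19 with array weights. Dnaja1, an abundant J protein of the cytosol, had 409, 386 and 500 RPM in YH250 1, 2 and 3, against 320, 437 and 498 RPM in DMSO 1, 2 and 3. It overlapped between the groups, with a log2 difference of 0.06 ± 0.23 that turned negative after quantile normalization and with equal gene totals.

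Dnajb4 had 67.0 RPM in YH250 2, against 29.9 to 37.3 RPM in the other libraries of both groups. Its log2 difference was 0.42 ± 0.31, and 0.11 without YH250 2. Dnajb6, a J protein known for keeping polyglutamine proteins soluble, was slightly lower at each number, with 98.2 to 145 RPM in YH250 and 110 to 159 RPM in DMSO (log2 difference -0.14 ± 0.25). Dnaja2 had 120 to 138 RPM in YH250 and 128 to 153 RPM in DMSO. The 5 HSP40 genes summed to 841 ± 64.5 RPM in YH250 and 812 ± 120 RPM in DMSO (SD, n = 3 each).

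All 8 TRiC/CCT subunits had a higher mean in YH250, by small amounts, and after quantile normalization Cct3 and Cct8 had the other sign. The log2 differences ran from 0.11 to 0.38 with a median of 0.20. In RPM, 7 of the 8 were higher in YH250 at all 3 numbers. As a share of the reads in genes, Tcp1, Cct3, Cct6a and Cct8 were lower in YH250 at number 2 and Cct2 at number 1. On that scale Cct4, Cct5 and Cct7 were higher in YH250 at all 3 numbers. Genes made up more of the scaling total in YH250 than in DMSO at number 1 (77.9% against 70.0%) and number 2 (84.9% against 75.6%). Cct5 (chromosome 15, 31590800 to 31601804) had 433, 573 and 510 RPM in YH250 1, 2 and 3, against 335, 424 and 404 RPM in DMSO 1, 2 and 3. Its groups did not overlap in RPM but did as a share of the reads in genes. The log2 difference was 0.38 ± 0.21 (limma, unadjusted p = 0.102, and 0.029 with the replicate block). Tcp1, the subunit CCT1, had 257, 297 and 341 RPM in YH250 1, 2 and 3, against 209, 271 and 316 RPM in DMSO 1, 2 and 3. In RPM, Tcp1 was higher in YH250 at each number, while its groups overlapped (log2 difference 0.18 ± 0.23).

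The other 6 subunits overlapped between the groups too. Cct4 had 304, 473 and 324 RPM in YH250 1, 2 and 3, against 259, 350 and 329 RPM in DMSO 1, 2 and 3, and was the exception at number 3, where YH250 was slightly lower. Its log2 difference of 0.21 was 0.02 without YH250 2. Cct7 reached 0.33 ± 0.22, Cct6a 0.23 ± 0.22, and Cct2, Cct3 and Cct8 each 0.11 on the log2 scale. The 8 subunits summed to 2128, 2541 and 2351 RPM in YH250 1, 2 and 3, against 1771, 2133 and 2112 RPM in DMSO 1, 2 and 3. As a share of the reads in genes, the sum was 0.273%, 0.299% and 0.251% in YH250 1, 2 and 3, against 0.253%, 0.282% and 0.220% in DMSO 1, 2 and 3, higher in YH250 at each number but with overlapping groups.

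The mitochondrial chaperones went different ways. Trap1, the HSP90 of mitochondria (chromosome 16, 4039971 to 4077827), had 85.0, 79.0 and 77.9 RPM in YH250 1, 2 and 3, against 65.5, 70.8 and 67.8 RPM in DMSO 1, 2 and 3. The groups did not overlap in RPM but did as a share of the reads in genes. The log2 difference was 0.24 ± 0.20 (limma, unadjusted p = 0.262). Hspd1, which encodes HSP60, had 268, 313 and 225 RPM in YH250 1, 2 and 3, against 246, 226 and 190 RPM in DMSO 1, 2 and 3. In RPM it was higher at each number but overlapping (log2 difference 0.28 ± 0.22). Hspa9, the HSP70 of the matrix, had 149, 177 and 160 RPM in YH250 1, 2 and 3, against 164, 195 and 179 RPM in DMSO 1, 2 and 3. It was lower in YH250 at each number, by a similar amount, and the groups overlapped (log2 difference -0.15 ± 0.20, limma unadjusted p = 0.490).

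Hspe1, which encodes the HSP60 lid HSP10, had 189, 220 and 244 RPM in YH250 1, 2 and 3, against 148, 168 and 316 RPM in DMSO 1, 2 and 3. It was higher in YH250 at numbers 1 and 2 and lower at number 3, where DMSO 3 was the highest library of all. Although Hspd1 and Hspe1 share the promoter printed above, the ratio of Hspd1 to Hspe1 was 1.42, 1.42 and 0.922 in YH250 1, 2 and 3, against 1.66, 1.35 and 0.599 in DMSO 1, 2 and 3. With the farther Hspd1 start the 2 genes overlap at their 5′ ends in the annotation, it is not known whether the counting used strand, and 44.8% of the Hspd1 words and 36.1% of the Hspe1 words occur in other genes.

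Hspb1, a small heat shock protein that holds unfolded clients without ATP, did not reach the minimum mean of 1 RPM (0.839 RPM). It had 0.783, 0 and 3.31 RPM in YH250 1, 2 and 3, against 0.153, 0 and 0.790 RPM in DMSO 1, 2 and 3. The 0 values allow up to 0.120 RPM in YH250 2 and 0.110 RPM in DMSO 2, and 58.9% of its words are shared with a pseudogene. Hsf1, the main factor of the heat shock response, had 42.3, 51.8 and 27.1 RPM in YH250 1, 2 and 3, against 40.3, 33.5 and 22.8 RPM in DMSO 1, 2 and 3. Its groups overlapped, with YH250 higher at each number in RPM (log2 difference 0.31 ± 0.33). Hsf2, a related factor, had 6.29, 8.68 and 5.58 RPM in YH250 1, 2 and 3, against 4.75, 12.4 and 11.9 RPM in DMSO 1, 2 and 3, again overlapping (log2 difference -0.37 ± 0.46).

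**Figure D3:**
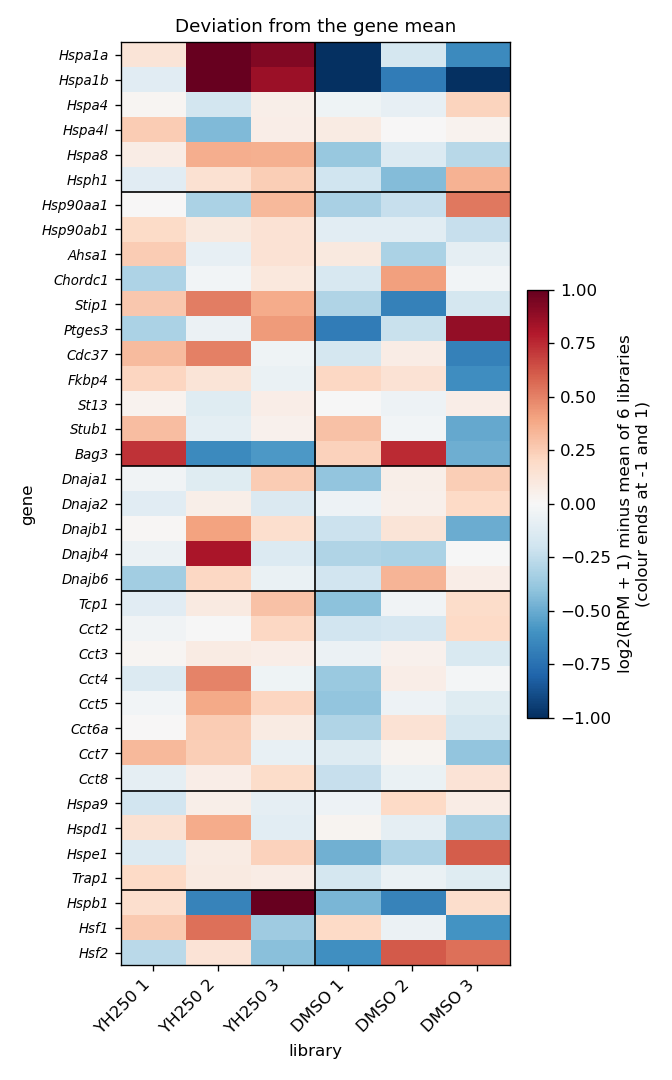
Log2(RPM + 1) of the 37 found chaperone genes in each library minus the gene's mean over the 6 libraries, grouped by role, YH250 libraries left of the DMSO libraries (red higher, blue lower, colour ends at -1 and 1). Hspa8, Hspa1a and Stip1 are red in the YH250 columns and blue in the DMSO columns, whereas Ptges3 and Hsp90aa1 are highest in DMSO 3 and YH250 3.

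Between replicate numbers, 1 chaperone gene passed the test. With treatment as a second term and 2 libraries per number, Ptges3 was the only one of 36 (2.78%) to pass between numbers 3 and 1, with a log2 difference of 1.16 ± 0.23 (limma, adjusted p = 0.015), against 8.56% of all tested genes (5.6% higher and 2.96% lower in number 3). It missed the threshold when no minimum mean was set. Hspe1 had a difference of 0.73 ± 0.23 (adjusted p = 0.081) and Hsp90aa1 one of 0.59 ± 0.20 (adjusted p = 0.108) in the same limma contrast. No chaperone gene passed between numbers 2 and 1 (0.199% of all tested genes) or between numbers 3 and 2 (6.31% of all tested genes). After quantile normalization 6 passed between numbers 3 and 1, namely Ptges3, Cct7, Cdc37, Fkbp4, Hspd1 and Stub1, of which 1 was higher in number 3, against 9.58% of all tested genes under that scaling. The median log2 difference between YH250 and DMSO was 0.24, 0.16 and 0.12 over the 36 genes at numbers 1, 2 and 3, beside 0.06, 0.06 and -0.06 over all tested genes.

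**Figure D4:**
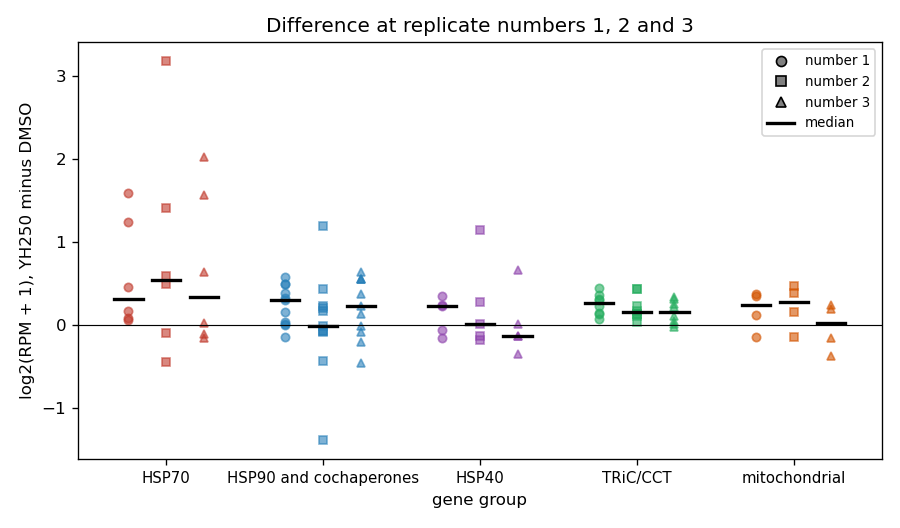
Log2(RPM + 1) of YH250 minus DMSO between libraries of the same replicate number for the tested genes of 5 chaperone groups; circles, squares and triangles are numbers 1, 2 and 3 and black bars are medians over the genes of a group. The TRiC/CCT medians are 0.27, 0.15 and 0.16, and the HSP40 median is negative at number 3 (-0.13).

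Levels were compared between genes per length of transcript. Hspa8 was the most abundant chaperone, with a mean of 899.8 RPM per kb over all libraries, before Hsp90ab1 with 574.6, Hsp90aa1 with 289.1 and Hspe1 with 276.5 RPM per kb. The subunits of TRiC/CCT, which are present in equal number in the assembled chamber, ranged from 69.7 RPM per kb for Cct6a to 240.9 RPM per kb for Cct5. HSP60 and its lid also differed, with 100.9 RPM per kb for Hspd1 and 276.5 RPM per kb for Hspe1. Hspa1b (4.84 RPM per kb), Hspa4l (3.63), Hsf2 (3.18), Bag3 (2.41), Hspa1a (2.08) and Hspb1 (0.929) were lowest. These levels depend on the transcript chosen for the length. For Cct6a it was a transcript of 2454 bases with no coding part. For Hspa4l it had 9479 bases, of which 2514 were coding. Cdc37 (22.9 RPM per kb) had a transcript of 7851 bases with 1137 coding, and Chordc1 (13.6 RPM per kb) one of 5789 bases with 993 coding.

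**Figure D5:**
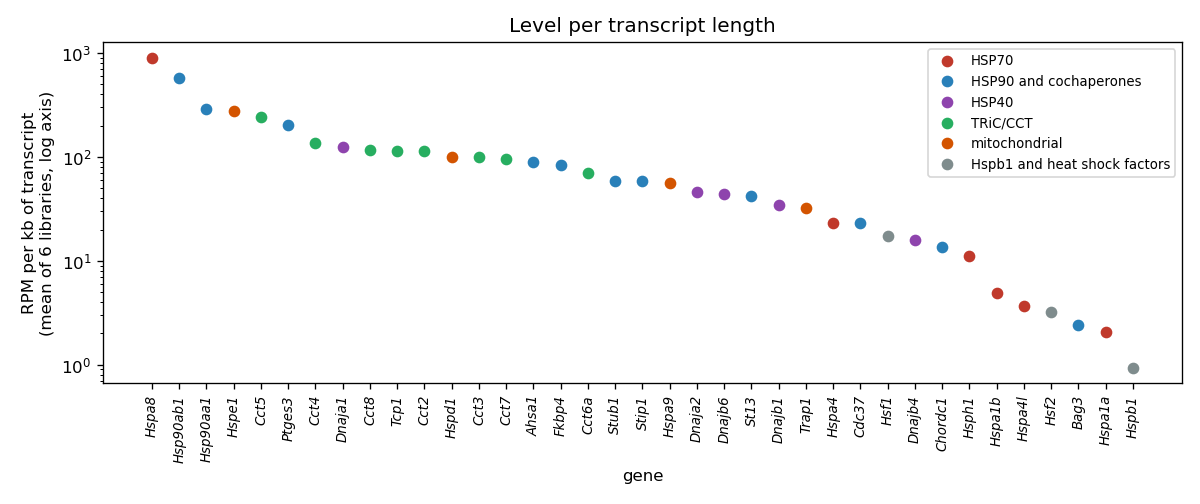
Mean RPM per kb of transcript over the 6 libraries for the 37 found chaperone genes in order of level, on a log axis, coloured by role. Hspa8 stands highest at 899.8 and Hspb1 lowest at 0.929 RPM per kb.

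Lists of further genes of the same pathways gave no gene under an unadjusted p of 0.05 between YH250 and DMSO without the block. Over all tested genes, 1.70% were under that p, and 51.7% had a higher mean in YH250. Of 8 tested other HSP70 family genes and exchange factors, 6 had a higher mean in YH250 (median log2 difference 0.23). Of 19 other HSP90 cochaperones 12 had a higher mean (0.13), of 9 prefoldin subunits and TRiC assistants 8 (0.17), of 14 other mitochondrial chaperones and proteases 8 (0.11), and of 14 other cytosolic J proteins 7 (0.02). All 3 tested other small heat shock protein genes had a higher mean in YH250, with a median of 0.77 and no level above 36.3 RPM. Their medians at numbers 1, 2 and 3 were 0.35, 1.90 and -0.27. With the replicate block, 5 of 19 HSP90 cochaperones had an unadjusted p under 0.05, namely Sgta, Nudc and Ruvbl2 (higher) and Tsc1 and Fnip1 (lower), against 4.46% higher and 2.99% lower over all tested genes. In the other lists these were Hspb8 (higher, 1 of 3 small heat shock proteins), Grpel1 (higher, 1 of 14 mitochondrial genes) and Pfdn4 (lower, 1 of 9 prefoldin and assistant genes), and none of the 8 HSP70 family genes or of the 14 J proteins.

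By Pearson correlation of log2(RPM + 1) over the 6 libraries, the tested genes most like Hspa8 were Hmces (0.984), Psmc1 (0.984), Gm1821 (0.976), Hspa1a (0.975) and Usp15 (0.974), a description that was not tested. The inducible Hspa1a was thus the fourth of all tested genes in likeness to the constitutive Hspa8. Psmc1, a proteasome ATPase, had 126, 148 and 143 RPM in YH250 1, 2 and 3, against 107, 122 and 116 RPM in DMSO 1, 2 and 3.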

How the data were processed

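The deposited signal is, from its values, reads per gene scaled to one common total per library (RPM) plus an offset of 1, made by the authors. Per the submitters' processing notes, CASAVA 1.8.2, TopHat2 2.0.8, Partek and the build mm10 were used, with no roles stated. Of the values worth at most 20 reads, 60.8% to 68.9% per library were whole within 0.1 of a read, too few to recover counts, so no count model was fitted. The offset was removed, symbols were matched by Ensembl ID to GENCODE M21, and log2(RPM + 1) was tested for the 13597 genes whose mean reached 1 RPM, with limma 3.58.1 in R 4.3.3 (lmFit, eBayes with trend and robust, two-sided), with Benjamini-Hochberg adjustment over all of them. This scale compresses differences of genes at low levels. Further steps used Python 3.11.15.

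Deviations from the group means correlated between same-numbered libraries at 0.551, 0.256 and 0.696 for numbers 1, 2 and 3. All were above 0.1, so the numbers were treated as pairs in the blocked fit, which is given where it changes a count. YH250 1 with DMSO 2 (0.144) and YH250 2 with DMSO 1 (0.109) were above 0.1 too, so this limit does not establish pairs. The other correlations between different numbers were negative. The main fit used no pairs. The labels do not state a pairing.

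Genes and lists were chosen with earlier results of these data known. Values in every library are given for 18 genes fixed by name, for genes with an unadjusted p under 0.05 with or without the block, and for genes whose groups do not overlap. Cct4 and Psmc1 were added after their values were seen, as were the genes of other lists named for the fit with the block. Transcripts were cut into words of 50 bases, the read length in the labels, to find words shared with other genes. The fit was run on simulated data with independent noise and with shifts larger than any limma log2 difference of a chaperone gene. That run does not show what could be detected for smaller differences. A planned comparison of HSP70 proteins was not run. One list of cell type markers is not reported here.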

Additional observations from a re-analysis of the deposited data

How the results depend on the processing

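Over 20 alternatives (2 of them, equal gene totals and Hspa8 summed with its pseudogenes, chosen after seeing the data), 0 genes passed an adjusted p under 0.05 between YH250 and DMSO, with 231 genes at an unadjusted p under 0.05 without and 1012 with the replicate block. The number of chaperone genes at an unadjusted p under 0.05 was 4, and 7 with the replicate block, which pairs libraries of the same number. It was 2 without both libraries numbered 2 and 2 to 4 with 1 library left out. The block changed no call at an adjusted p under 0.05. The median log2 difference of the chaperone genes was 0.18, and it moved to 0.07 after quantile normalization and to 0.086 with equal gene totals, where the median of all genes was -0.07. With 1 library left out it was 0.12 to 0.22. The number of chaperone genes that passed between numbers 3 and 1 was 1, and became 0 with no minimum mean, 2 with a minimum mean of 5 RPM and 6 after quantile normalization. The cause of these shifts was not tested.

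Of 36 genes, 21 kept the sign of their log2 difference under every alternative run and 15 did not. Of these 15, Bag3 had a log2 difference of -0.33 and the others lay between -0.15 and 0.19. After quantile normalization the sign changed for Hsp90aa1 (-0.10), Ptges3 (-0.075), Dnaja1 (-0.056), Cct3 (-0.0054) and Cct8 (-0.010). With median-of-ratios scaling it changed for Hsp90aa1 (-0.026) and Ptges3 (-0.0029), and with equal gene totals for Hsp90aa1 (-0.084), Ptges3 (-0.061) and Dnaja1 (-0.034). With array weights it changed for Hspa4 (0.023), Hspa4l (0.074) and St13 (0.037). Without both libraries numbered 1 it changed for Hsp90aa1 (-0.15), Ptges3 (-0.14) and Dnaja1 (-0.086). Without both numbered 2 it changed for Hspa4l (0.10), Hsph1 (-0.0086), Ptges3 (-0.033), St13 (0.016), Bag3 (0.20) and Hspe1 (-0.013), and without both numbered 3 for Fkbp4 (-0.0030) and Stub1 (-0.026). With 1 library left out, the ranges that crossed 0 were -0.12 to 0.030 for Hspa4, -0.23 to 0.12 for Hspa4l, -0.15 to 0.28 for Hsp90aa1, -0.26 to 0.019 for Chordc1, -0.31 to 0.48 for Ptges3, -0.082 to 0.33 for Fkbp4, -0.050 to 0.044 for St13, -0.046 to 0.36 for Stub1, -0.12 to 0.20 for Dnaja1, -0.28 to 0.0018 for Dnajb6 and -0.091 to 0.45 for Hspe1. The median standard error of a log2 difference over all genes was 0.39, and 0.30 with the block, which limits what could be detected.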

Other observations

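The chaperones of the endoplasmic reticulum, which fold secreted and membrane proteins, differed between replicate numbers. Of 14 such genes, 7 (50.0%) were higher in number 3 than in number 1 at an adjusted p under 0.05 (limma), against 5.6% of all tested genes, and their median log2 difference was 0.82. Hsp90b1, the HSP90 of this compartment, had 230, 177 and 667 RPM in YH250 1, 2 and 3, against 208, 183 and 642 RPM in DMSO 1, 2 and 3. Manf had 109, 133 and 305 RPM in YH250 1, 2 and 3, against 74.6, 90.9 and 322 RPM in DMSO 1, 2 and 3. Both libraries numbered 3 were the highest for each. The summed markers of B cells, of T and NK cells, of granulocytes and macrophages, and of CD48 and Flt3 progenitors were also highest in number 3 in both groups, and those of stem cells were lowest there (632 RPM in YH250 3 and 702 RPM in DMSO 3). Single markers did not all follow these sums. Ly6a, a stem cell marker, was highest in number 3 in both groups (319 RPM in YH250 3 and 241 RPM in DMSO 3). Lyz2, a granulocyte and macrophage marker, was lowest there in both (101 RPM in YH250 3 and 124 RPM in DMSO 3). The part of these cell types was not tested. Between YH250 and DMSO, 10 of the 14 had a higher mean in YH250, against 51.7% of all tested genes, with a median of 0.19. Against 1.70% of all tested genes, none of the 14 had an unadjusted p under 0.05 without the block. With the block 1 of the 14, Pdia3, was higher at that level, against 4.46% of all tested genes. A test of the difference between these genes and the other chaperones was not made.

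Of 13 immediate early genes, which respond within minutes to handling and signals, 6 had a higher and 7 a lower mean in YH250, with a median log2 difference of -0.03. Over all tested genes, 51.7% had a higher mean in YH250. Against 1.70% of all tested genes, none of the 13 had an unadjusted p under 0.05 without the block. With it, Junb and Dusp1 were higher and Egr1 was lower at that level, that is 2 and 1 of 13, against 4.46% and 2.99% of all tested genes. Between numbers 3 and 1, 6 of the 13 (46.2%) were lower in number 3 at an adjusted p under 0.05 (limma), against 2.96% of all tested genes. Jund had 306, 482 and 132 RPM in YH250 1, 2 and 3, against 424, 482 and 101 RPM in DMSO 1, 2 and 3.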
